A study of Saccharomyces cerevisiae with 4 samples.

Results

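The 10 genes described here encode the silencing proteins Sir1 to Sir4, the 4 homologues of Sir2 (Hst1 to Hst4) and the telomere proteins Rif1 and Rif2 of budding yeast. They were taken by name from an R64 gene table, as 10 of 6134 genes with a measurable read count, and every one of the 10 was measured. The window of a gene ran from 500 bp before the start of its open reading frame (ORF) to the end of the ORF, and a listed nucleosome belonged to it by its midpoint. The mark is acetylation of lysine 16 of histone H4 (H4K16ac), profiled by ChIP-seq in Saccharomyces cerevisiae. The groups are nhp6ab cells and wild-type (WT) cells, with 2 libraries each. The name nhp6ab refers to NHP6A and NHP6B, the genes of a pair of small DNA-bending proteins. The labels give no allele structure and no parent strain. Both genotypes grew exponentially in rich glucose medium (YPD) and were fixed with 1% formaldehyde for 20 min.

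H4K16ac is the acetyl mark that Sir2, an NAD-dependent deacetylase, removes at the silent mating loci and near telomeres. Sir3 and Sir4 bind the deacetylated tails and spread along the chromatin, while Sir1 helps to start silencing at the mating loci. Rif1 and Rif2 bind the telomere protein Rap1, as Sir3 and Sir4 do, and restrain telomere length. The comparison asked how the mark lay over the genes of these proteins themselves, and whether it differed between the genotypes.

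The table labelled nhp6ab listed 57674 nucleosomes with 20293261 counts and a median of 354 counts per nucleosome, and the one labelled WT listed 60557 nucleosomes with 26526939 counts and a median of 442. Each genotype has a single column of counts for both of its libraries, so replicate spread could not be measured. No test of the genotypes was possible, and each 95% interval given covers counting error only. A log2 ratio is nhp6ab over WT, with counts divided by the total of their table. No input library was used, so a count also carries nucleosome occupancy and recovery. Chromosome XII held 10.9% of the counts labelled nhp6ab and 8.51% of the WT counts. Its 517 measured genes had a median log2 ratio of 0.37, which was subtracted from the ratios of SIR3 and RIF2, the 2 members on that chromosome. As a check of the labels, the NHP6A window held 682 counts in nhp6ab and 1789 in WT (log2 ratio −1.005), and that of NHP6B 1479 and 2171 (−0.17). The NHP6B ratio lay within the interquartile range of all measured genes (−0.18 to 0.08), and both windows kept counts in nhp6ab. The check therefore does not establish the labels. Directions are those of the tables as labelled.

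Over whole gene windows, a gene was called at a log2 ratio of at least 0.32 in size with an interval that excluded 0. RIF2 alone was called, on the low side, where 12.0% of all measured genes lay. On the high side was none of the 10, against 4.17% of all genes. The median log2 ratio was 0.05 over the 10 genes and −0.04 over all measured genes (interquartile range −0.18 to 0.08). The 10 windows together held 49526 counts over 138 nucleosomes in nhp6ab and 63291 counts over 146 in WT. The other 9 genes stayed within the limit, and differences showed more within the genes than over them. A level is a nucleosome's count over the median count of its table, so a level of 1 is a typical nucleosome.

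**Figure D1:**
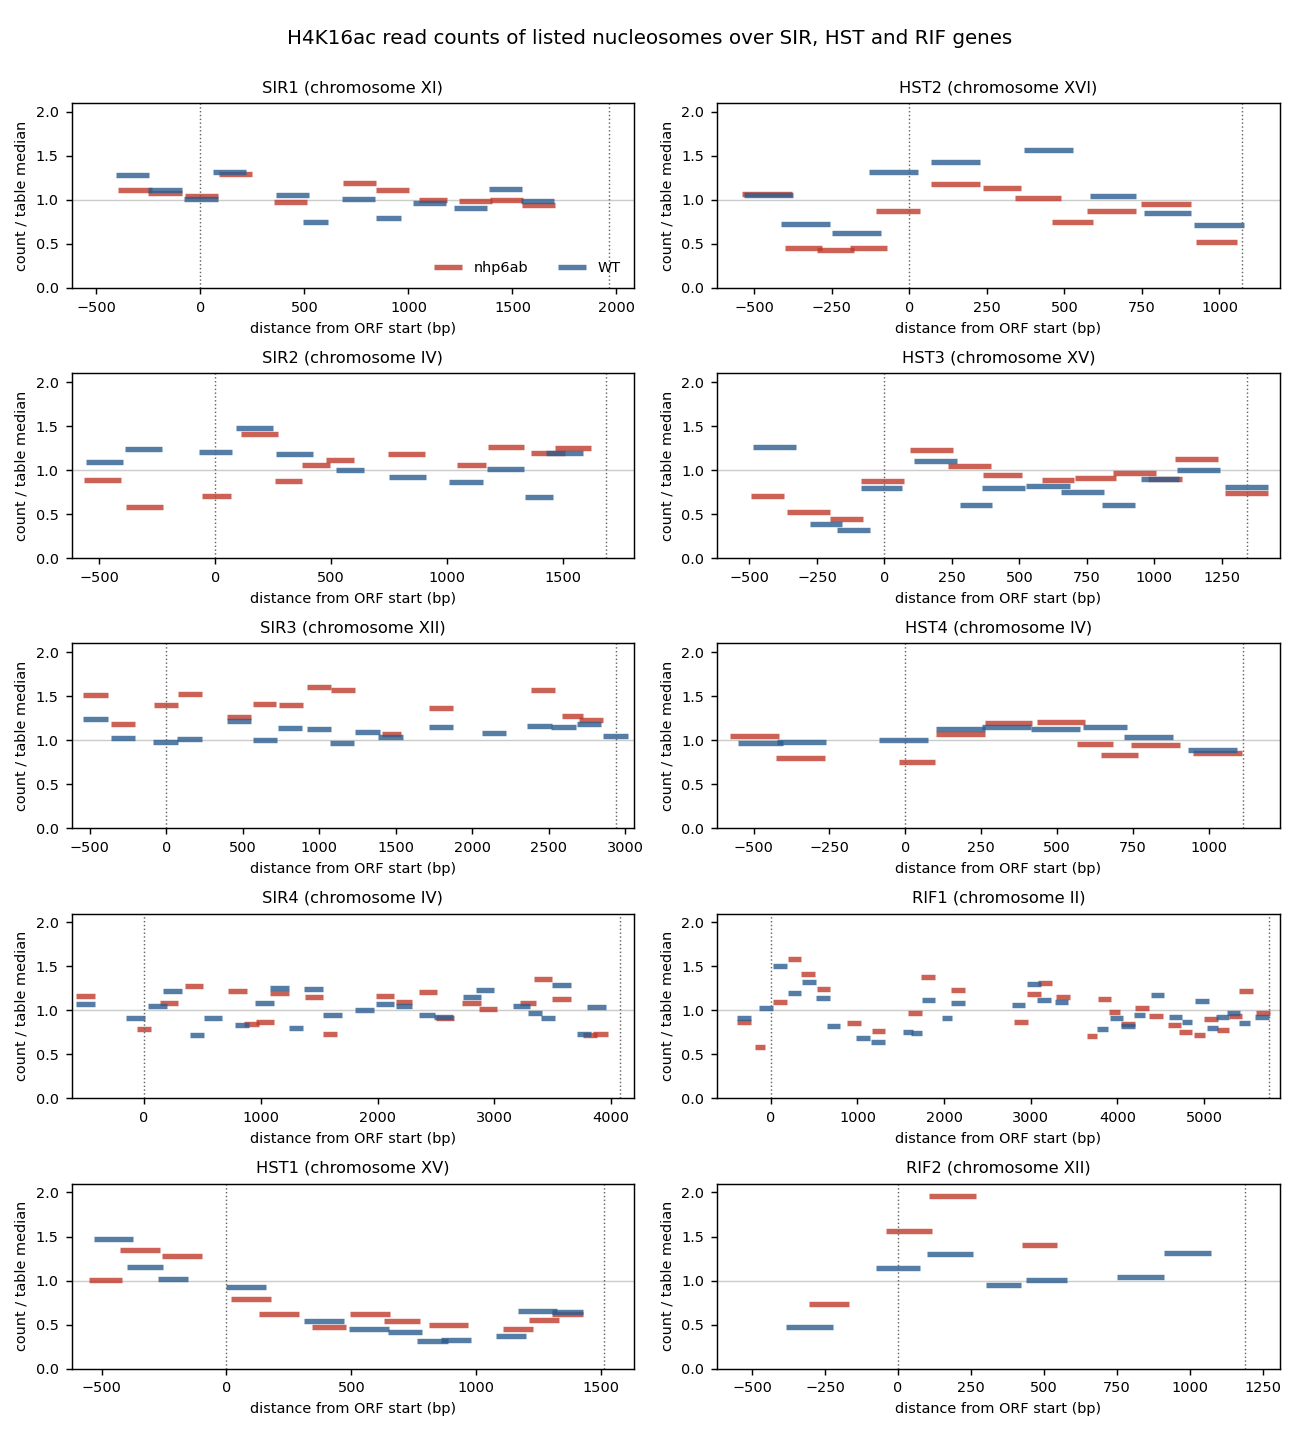
Each bar is a listed nucleosome, drawn at its width, with the distance from the ORF start in bp on the x axis and its count divided by the table's median on the y axis, for nhp6ab (red) and WT (blue). Dotted lines mark the ORF start and end. The bars of HST1 fall below 1 inside the ORF in both tables, and 1 SIR2 bar upstream of the ORF lies at 0.58 in nhp6ab and 1.24 in WT.

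Among the SIR genes, SIR2 carried the lowest ratio of a single nucleosome. SIR2 (YDL042C) encodes the H4K16 deacetylase and lies on chromosome IV, 376757 to 378445, on the minus strand. Its window held 4448 counts over 12 nucleosomes in nhp6ab and 5261 over 11 in WT, a log2 ratio of 0.14 (95% interval 0.09 to 0.20) and 0.02 by the mean count per listed nucleosome. With overlapping nucleosomes left out it turned to −0.18. Behind this near balance, the sums upstream and in the ORF differed in opposite directions. The 500 bp upstream had 518 counts in nhp6ab and 1029 in WT, a ratio of −0.60 (−0.76 to −0.45) with 2 nucleosomes in each table. The ORF had 3930 counts in nhp6ab and 4232 in WT, a ratio of 0.28 (0.22 to 0.34). By the mean per listed nucleosome the ORF ratio was 0.13, with 10 nucleosomes in nhp6ab and 9 in WT.

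The lower upstream count at SIR2 sat beside a gap in the listed nucleosomes before the gene. In the sequence between NAT1 and SIR2, outside both ORFs, the nucleosome at −305 bp (378670 to 378830) held 204 counts in nhp6ab. Its WT counterpart at −310 bp (378675 to 378835) held 548 counts, and the log2 ratio was −1.04 (−1.28 to −0.80). This was the lowest ratio of the 121 nucleosome pairs over the 10 genes, and both intervals were 160 bp wide. Of 3955 upstream pairs in the genome with 160 bp in both tables, 0.809% had a ratio as low or lower, and of all 9243 upstream pairs 2.06%. The pair was chosen as the lowest, so these shares only describe its place. On the other side of the gap, over the ORF start, 250 counts at 6 bp in nhp6ab stood against 535 counts at 2 bp in WT, a ratio of −0.71 (−0.93 to −0.49). The gap between these neighbours measured 311 bp from midpoint to midpoint in nhp6ab and 312 bp in WT, so both flanks were lower with positions that moved by 5 bp or less. Further in, the next nucleosome had levels of 1.41 in nhp6ab and 1.48 in WT. Without the pair at −310 bp and the pair at 2 bp, the median of the SIR2 pairs was 0.21.

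SIR1 (YKR101W, chromosome XI, 640540 to 642504, plus strand), whose product recruits the other Sir proteins to silencers, had a window sum close to that of WT. Its window had 4152 counts over 11 nucleosomes in nhp6ab and 5451 over 12 in WT, a ratio of −0.01 (−0.06 to 0.05). The mean per listed nucleosome gave 0.12, and scaling to the median count −0.07. The ratio was −0.07 upstream and 0.01 in the ORF. Single nucleosomes differed more, with 0.56 (0.35 to 0.77) at 905 bp and 0.30 (0.105 to 0.495) at 761 bp. The interval of the first of these was 160 bp wide in nhp6ab and 120 bp in WT. Per bp of interval its ratio was 0.14 (−0.07 to 0.35). SIR1 had no wide gap at its start: nucleosomes followed each other at −170 and 4 bp in nhp6ab and at −171 and 3 bp in WT. Its ORF ended 23.9 kb from the last annotated or listed position of the chromosome, nearest to a chromosome end of the 10 genes, yet its ORF level was ordinary at 1.06 in nhp6ab and 0.99 in WT.

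SIR3 (YLR442C, chromosome XII, 1019315 to 1022251, minus strand) encodes the nucleosome-binding silencing protein and shares its upstream window with the start of ECM7. It had 6863 counts over 14 nucleosomes in nhp6ab and 8226 over 17 in WT. The ratio was 0.13 as measured and −0.25 (−0.29 to −0.20) after centring on the chromosome. By the mean per listed nucleosome the centred ratio was 0.03, so the lower sum went with the fewer listed nucleosomes. In WT the gene was the most even of the 10, with ORF levels between 0.97 and 1.21. The WT nucleosomes at 1315, 2142 and 2597 bp, with 483, 480 and 506 counts, had no counterpart within 50 bp in nhp6ab. A missing entry in a table may still stand for reads, so it was not taken as 0.

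SIR4 (YDR227W, chromosome IV, 917571 to 921647, plus strand) encodes the scaffold that joins Sir2 to Sir3. Its window had 7731 counts over 21 nucleosomes in nhp6ab and 11242 over 25 in WT, a ratio of −0.15 (−0.20 to −0.11) but 0.10 by the mean. The tables differed here in which nucleosomes they listed. In nhp6ab 4 and in WT 8 of its nucleosomes had no counterpart. Around the start, nhp6ab listed 281 counts at 0 bp over a narrow interval, while WT listed 405 counts at −70 bp and 466 counts at 114 bp. The gap upstream of them measured 500 bp in nhp6ab and 430 bp in WT. Upstream counts were 410 in nhp6ab and 881 in WT, a ratio of −0.72 (−0.89 to −0.55). With 1 nucleosome in nhp6ab and 2 in WT, the mean per nucleosome gave 0.28, the opposite sign.

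The 4 homologues of SIR2 all had ORF ratios above 0, at 0.22 for HST1, 0.26 for HST2, 0.31 for HST3 and 0.34 for HST4. This was not particular to them, since 7 of the 10 genes lay above 0 in the ORF. The median of all measured ORFs was −0.01. HST4 alone was called on the high side, where 6.79% of all measured ORFs were. Its ORF sum in nhp6ab includes a nucleosome at 39 bp, with 267 counts, whose WT counterpart at −6 bp counted as upstream. With 200 bp upstream included, the HST4 ratio was 0.13. By the mean per listed nucleosome HST2 and HST4 turned to −0.22 and −0.08, since more nucleosomes were listed in nhp6ab for both. HST1 and HST3 had 9 nucleosomes in the ORF in each table, so for them the mean gives the same ratio as the sum by arithmetic.

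HST1 stood apart in its level rather than in its ratio. HST1 (YOL068C, chromosome XV, 200368 to 201879, minus strand) is the closest homologue of SIR2, and its product represses genes of middle sporulation together with Sum1 and Rfm1. The mean level inside the ORF was 0.57 ± 0.10 in nhp6ab and 0.51 ± 0.20 in WT (SD over 9 nucleosomes each). Among 4976 protein-coding genes with at least 3 ORF nucleosomes in both tables, 165 had a lower level in nhp6ab and 90 in WT. Upstream, over the end of the neighbouring RTG1, the level was 1.21 in both tables. In the 1000 bp beyond the ORF end it was 1.05 in nhp6ab and 1.08 in WT, over 3 nucleosomes each. Levels were thus low inside the ORF and ordinary on both sides of it. In nhp6ab the counts ran 278, 220, 166, 220, 191, 175, 160, 196 and 221 from start to end. In WT they ran 410, 237, 198, 184, 138, 144, 163, 290 and 284. WT reached its lowest levels, 0.31 and 0.33, in the middle of the gene at 825 and 920 bp, where nhp6ab had 0.49 at 889 bp. These intervals were 122 and 120 bp wide in WT and 158 bp in nhp6ab. Per bp of interval, the pair at 920 bp in WT and 889 bp in nhp6ab had a log2 ratio of 0.27 (−0.06 to 0.60). Divided by interval width, the ORF level of HST1 was 0.59 in nhp6ab and 0.55 in WT. SIR2 itself had ORF levels of 1.11 ± 0.20 in nhp6ab (10 nucleosomes) and 1.06 ± 0.23 in WT (9 nucleosomes).

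**Figure D2:**
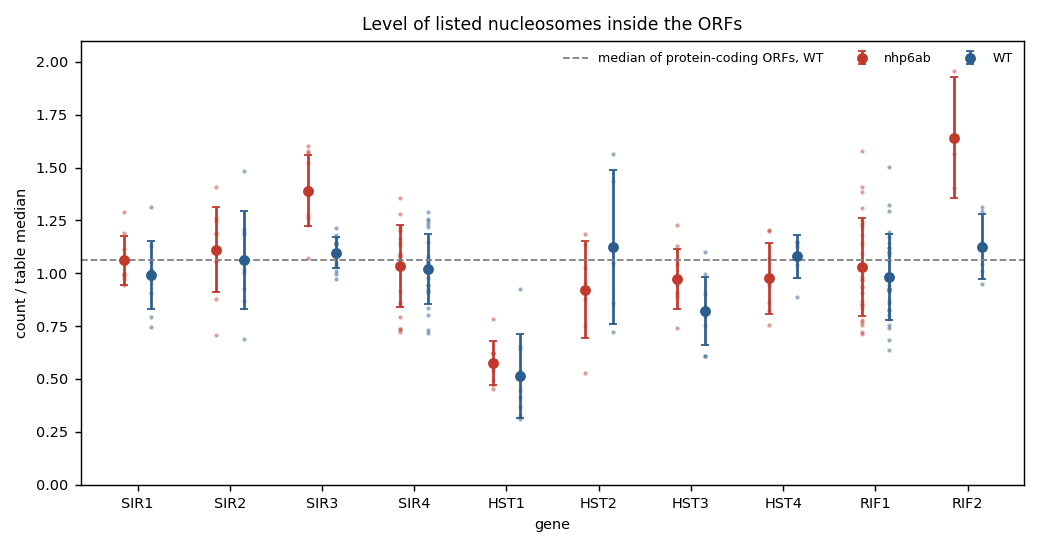
Mean count of listed nucleosomes inside each ORF divided by the table's median, for nhp6ab (red, left) and WT (blue, right), with bars of 1 SD over the gene's nucleosomes and small points for single nucleosomes. The dashed line is the median of protein-coding ORFs in WT, 1.06. HST1 lies lowest in both tables, and the nhp6ab levels of SIR3 and RIF2 include the shift of chromosome XII.

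In WT the order of mean ORF levels was HST1 (0.51), HST3 (0.82), RIF1 (0.98), SIR1 (0.99), SIR4 (1.02), SIR2 (1.06), HST4 (1.08), SIR3 (1.10), HST2 (1.13) and RIF2 (1.13). From RIF1 upward, each neighbour in that order differed by less than the SD over its nucleosomes. The step between HST3 and RIF1 was about as large as the SD of HST3 (0.16) and smaller than that of RIF1 (0.20). The step between HST1 and HST3 exceeded both of their SDs. The nhp6ab levels of SIR3 (1.39) and RIF2 (1.64) were highest, on the chromosome that was raised as a whole. Divided by the median of their own chromosome, the whole windows stood at 1.08 and 1.10 in nhp6ab and at 1.12 and 1.05 in WT.

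HST3 and HST4 encode the deacetylases that remove acetyl groups from lysine 56 of histone H3. HST3 (YOR025W, chromosome XV, 378219 to 379562, plus strand) had the highest window ratio of the 10, 0.22 (0.16 to 0.28), with 4003 counts in nhp6ab and 4487 in WT over 13 nucleosomes each. Its start was unlike that of SIR2. Weak nucleosomes filled the upstream sequence, with 185 counts at −280 bp and 157 at −140 bp in nhp6ab and 170 counts at −216 bp and 140 at −115 bp in WT. Further upstream, 250 counts at −433 bp in nhp6ab stood against 559 at −407 bp in WT, a ratio of −0.77 (−0.995 to −0.56), with intervals of 120 bp and 160 bp. At 314 bp in nhp6ab and 340 bp in WT the counts were 370 and 269, a ratio of 0.85 (0.62 to 1.08), with widths of 160 bp and 120 bp.

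HST4 (YDR191W, chromosome IV, 842337 to 843449, plus strand) shares its upstream window with the start of RVB1. It had 3420 counts over 10 nucleosomes in nhp6ab and 4173 over 9 in WT, a ratio of 0.10 (0.03 to 0.16). Its first nucleosome lay across the ORF start and its midpoint changed sides. In nhp6ab it was listed at 39 bp with 267 counts, and in WT at −6 bp with 445 counts, a ratio of −0.35 (−0.57 to −0.13). This single nucleosome counted as upstream in WT and as ORF in nhp6ab. The upstream ratio of −0.62 (−0.75 to −0.48) became −0.03 by the mean. The gap before the ORF measured 384 bp in nhp6ab and 335 bp in WT.

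HST2 (YPL015C, chromosome XVI, 525810 to 526883, minus strand) encodes a largely cytoplasmic sirtuin. Its sum and its mean pointed in opposite directions, at 0.12 (0.06 to 0.19) and −0.29, because 12 nucleosomes were listed in nhp6ab and 9 in WT. Between the outermost upstream nucleosome and the ORF start, nhp6ab listed 159, 154, 162 and 309 counts, and WT listed 323, 277 and 582. In the ORF the highest WT nucleosome of all 10 genes, with 692 counts at 449 bp, was set against 362 counts at 414 bp in nhp6ab, where a further nucleosome was listed on each side. The pairs of HST2 had a median of −0.39, the lowest of the 10 genes. Overlapping intervals can count a read more than once, so neither its sum nor its mean can be preferred.

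RIF1 (YBR275C, chromosome II, 751356 to 757106, minus strand) encodes the Rap1-binding protein that, with the phosphatase Glc7, also sets replication timing. It is the longest of the 10 genes and had 10351 counts over 29 nucleosomes in nhp6ab and 13463 over 31 in WT, a ratio of 0.01 (−0.03 to 0.04). Its upstream ratio was −0.36 (−0.52 to −0.20), with 2 nucleosomes in each table. At −306 bp in nhp6ab and −308 bp in WT the counts were 306 and 403, equal after scaling (−0.01). The difference lay closer to the gene, with 206 counts at −128 bp in nhp6ab and 456 counts at −59 bp in WT, too far apart to be paired. Their intervals were 120 bp wide in nhp6ab and 160 bp in WT. The first nucleosome in the ORF had 388 counts in nhp6ab and 665 in WT, a ratio of −0.39 (−0.58 to −0.21). The level along RIF1 was highest near the start, at 1.58 in nhp6ab (274 bp) and 1.505 in WT (110 bp), and was 0.77 in nhp6ab at 1242 bp and 0.64 in WT at 1232 bp.

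RIF2 (YLR453C, chromosome XII, 1041799 to 1042986, minus strand), whose product limits telomerase at chromosome ends, had 2001 counts over 4 nucleosomes in nhp6ab and 3196 over 7 in WT. The centred ratio was −0.66 (−0.74 to −0.58), and −0.29 (−0.37 to −0.21) without centring. By the mean per listed nucleosome the centred ratio was 0.14, so its call rests on nucleosomes that were not listed in nhp6ab. In nhp6ab the counts were 258 at −237 bp, 553 at 38 bp, 693 at 186 bp and 497 at 486 bp. In WT they were 209 at −304 bp, 507 at 1 bp, 573 at 178 bp, 420 at 362 bp, 446 at 508 bp, 461 at 832 bp and 580 at 992 bp. By midpoint, the last part of the gene had therefore no listed nucleosome in nhp6ab. The ORF was covered to 36.1% in nhp6ab and 69.4% in WT, where intervals with a midpoint beyond the ORF end also counted. With every nucleosome counted that overlapped the window, the centred ratio was −0.38. The 3 nucleosomes that could be paired had centred ratios between 0.07 and 0.22.

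Upstream and ORF were then compared over the 10 genes. By the same limit, upstream counts were called lower in nhp6ab for SIR2, SIR4, HST4 and RIF1, 4 of the 10, where 31.8% of all measured genes were called lower. None was called higher, against 11.4%. The upstream median was −0.10 over the 10 genes and −0.11 over all genes. In the ORF the median was 0.13 over the 10 genes and −0.01 over all genes. RIF2 was the only one of the 10 with a lower ORF call, against 11.7% of all ORFs. The upstream ratio lay below that of the ORF in 8 of the 10 genes and in 59.6% of 5449 genes, with median differences of −0.37 and −0.11. The median difference of the 10 genes was −0.19 by the mean per listed nucleosome, and −0.17 with an upstream part of 250 bp, measured in 6 of them. The exceptions were SIR3 and RIF2. The lower upstream sums are close to the share of the genome as a whole, and in SIR4 and HST4 they went with a nucleosome that lay, by its midpoint, outside the upstream part in nhp6ab. SIR2 and RIF1 had 2 upstream nucleosomes in each table, so sum and mean give the same upstream ratio by arithmetic and the mean adds no check. The upstream intervals of SIR2 were all 160 bp wide. In RIF1 the one nearer the gene was 120 bp wide in nhp6ab and 160 bp in WT, so its lower upstream sum went with a narrower interval.

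**Figure D3:**
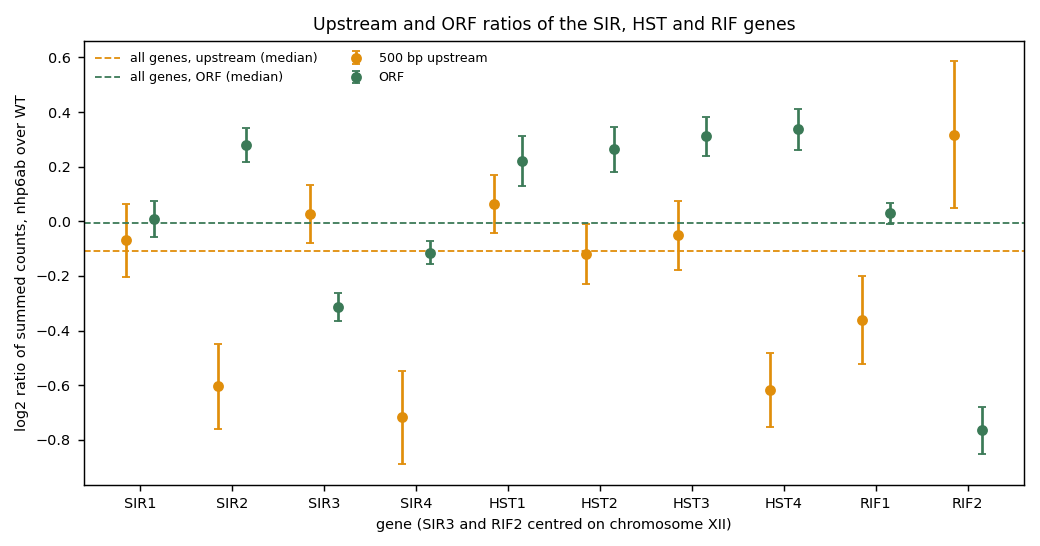
Log2 ratio of summed counts (nhp6ab over WT) for the 500 bp upstream (orange) and the ORF (green) of each gene, with 95% counting intervals, and the medians of all genes as dashed lines. The upstream values of SIR2 (−0.60), SIR4 (−0.72), HST4 (−0.62) and RIF1 (−0.36) lie below their ORF values, and RIF2 shows the opposite order.

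Single nucleosomes were paired between the tables by the nearest midpoint within 50 bp. Over the 10 genes 121 pairs were made, 22 upstream and 99 in ORFs, with ratios on chromosome XII centred on the 0.44 median of that chromosome's pairs. The median was −0.12 upstream and 0.11 in ORFs, against −0.06 and 0.03 for all pairs upstream of and inside protein-coding ORFs. At least 1.5-fold lower in nhp6ab were 4 pairs, where 3.12% of all pairs were. In ascending order these were the SIR2 pair at −310 bp, the HST3 pair at −407 bp, the SIR2 pair at 2 bp and the HST2 pair at −336 bp (−0.64). Upstream lay 3 of them, where 7.30% of upstream pairs were lower, and in ORFs 1, where 1.66% were. The next lowest pair was that of HST2 at 449 bp (−0.55), short of 1.5-fold. At least 1.5-fold higher were 7 pairs, where 2.32% of all pairs were. All 7 lay in ORFs, where 2.33% of pairs were higher, and none upstream, where 1.35% were. The 5 highest were in SIR4 at 453 bp (0.91), SIR2 at 1399 bp (0.85), HST3 at 340 bp (0.85), HST1 at 920 bp (0.67) and SIR4 at 3456 bp (0.64).

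Interval width moved with these pair ratios. All 7 higher pairs had intervals of 146 to 160 bp in nhp6ab and only 120 to 126 bp in WT. Of the 4 lower pairs, 3 had a narrower interval in nhp6ab than in WT. The same held across the genome, where 75.5% of the higher pairs had the narrower interval in WT, against 21.0% of all pairs. Per bp of interval, none of the 7 higher pairs passed 1.5-fold, and of the 4 lower ones the SIR2 pair at −310 bp did. Counted per bp over all 121 pairs, 1 was higher, against 1.20% of all pairs, and 1 was lower, against 2.02%. The higher one lay in HST3 at 606 bp (0.60 per bp). Among the 41 pairs with 160 bp in both tables, the SIR2 pair at −310 bp alone passed, on the low side. Of 17107 such pairs in the genome, 1.67% were lower, so 1 of 41 is near that share. The pair over the SIR2 start was at −0.49 per bp.

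**Figure D4:**
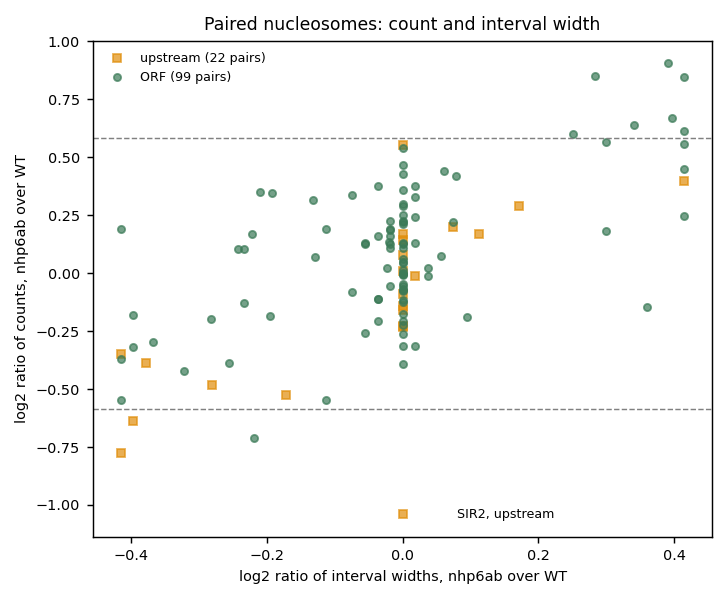
Log2 ratio of counts (y axis) against log2 ratio of interval widths (x axis), both nhp6ab over WT, for the 121 paired nucleosomes of the 10 genes (squares upstream, circles in ORFs). Dashed lines mark 1.5-fold. Every pair above the upper line lies to the right, with a wider interval in nhp6ab, and the SIR2 upstream pair lies below the lower line at equal widths.

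The first nucleosome listed inside the ORF in WT, at 182 bp for HST4, could be paired for 9 genes, all but SIR4. Only that of SIR2 was at least 1.5-fold lower, against 2.37% of 5192 protein-coding genes, and none was higher, against 0.828%. The SIR2 midpoint was at 2 bp in WT, so this nucleosome lay across the ORF start, as did those of SIR1 (3 bp) and RIF2 (1 bp). Those of HST1 (−0.17), HST2 (−0.21), HST4 (−0.00) and RIF1 (−0.39) were below 0, and those of SIR1 (0.11), SIR3 (0.22), HST3 (0.23) and RIF2 (0.07) above. The median of the 9 was −0.00, and that of all genes −0.03.

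Positions could be compared only within pairs, whose midpoints lie within 50 bp of each other by the pairing rule. The largest shift of a pair over the 10 genes was 49 bp, in HST3. Among the 99 ORF pairs, 60 midpoints lay further downstream in nhp6ab, 34 further upstream and 5 at the same place, with a median shift of 2 bp. Across the genome 49.6% of ORF pairs lay downstream in nhp6ab and the median shift was 0 bp. Most one-sided were SIR1, with 10 of its 11 pairs downstream, and SIR3, with 10 of 13 downstream and 3 unmoved, upstream pairs included. Without a counterpart were 17 of 138 nucleosomes in nhp6ab (12.3%) and 24 of 146 in WT (16.4%), close to the 11.3% and 15.5% of the whole tables. The widest gap around the ORF start was at least 274 bp in nhp6ab and 277 bp in WT for SIR2, SIR3, SIR4, HST1, HST4 and RIF2. In SIR1, HST2, HST3 and RIF1 it was at most 232 bp in nhp6ab and 249 bp in WT. The median over protein-coding genes was 269 bp in nhp6ab and 253 bp in WT.

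A wider list of 41 genes of silencing, telomere capping, histone deacetylation and NAD supply gave no called gene in either direction, where 12.0% of all measured genes were called lower and 4.17% higher. Its median ratio was −0.01, or −0.26 upstream and 0.01 in the ORF, against −0.11 upstream and −0.01 in the ORF over all genes. Lowest were TOF2, which binds Cdc14 and acts in silencing of the ribosomal DNA, at −0.318 (−0.39 to −0.25), just inside the limit of 0.322, and YKU70, of the Ku complex of chromosome ends, at −0.30 (0.21 by the mean). Highest were the deacetylase gene HOS3 at 0.23 and SIF2, of the Set3 complex, at 0.21 (−0.01 by the mean).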

How the data were processed

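H4K16ac ChIP-seq values came from 4 libraries, 2 labelled nhp6ab and 2 WT. Per the submitters' processing notes, reads went through FastQC and Bowtie on build R64. The nucleosome caller, its filters and how the replicates were merged were not given in the sources used here. The authors deposited 1 table per genotype that lists the position of each nucleosome and its read count, used as raw counts. Since each genotype has 1 column, the planned edgeR test gave way to ratios with counting intervals.

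Counts were summed over nucleosomes with a midpoint in the gene window. Measured genes had 100 or more counts in the tables together and some in each. The log2 ratio after scaling to table totals has an exact conditional binomial 95% interval. Reads amplified by PCR are not independent molecules, and 39.1% of listed nucleosomes in nhp6ab and 41.1% in WT overlapped the next, so intervals are too narrow. At the median count, counting error was 5.31% of a nucleosome's count in nhp6ab and 4.76% in WT. A call needed a log2 ratio of 0.32 for genes and a fold of 1.5 for pairs, with an interval that excluded 0. Pairing was one to one, nearest first. Genes are those of an R64 table, with the strand from the systematic name, and coordinates are as the tables give them.

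Members, lists and tests were chosen with earlier results of these data known. Named are all 10 members, the 2 highest and 2 lowest of the wider list, and the 5 highest and 5 lowest pairs, beside the first nucleosome of each ORF. Further single nucleosomes, the start gaps and the per-bp values were chosen after their values were seen. Scripts were tested on simulated data (Python 3.11.15, numpy 2.4.6, pandas 2.3.3, scipy 1.17.1). A planned motif search was not run, since no sequence was used here.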

Additional observations from a re-analysis of the deposited data

How the results depend on the processing

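RIF2 was the one called gene, and its direction depends on how listed nucleosomes enter. Its centred ratio reversed to 0.14 by the mean per listed nucleosome, to 0.15 with paired nucleosomes only and to 0.21 per bp of listed interval, an alternative chosen after seeing the data. The count of genes called lower was then 0 in each of these, and also 0 without centring of chromosome XII. With the ORF only, and centring on the ORFs of chromosome XII, 2 genes were called lower (SIR3 at −0.35 and RIF2 at −0.80) and 1 higher (HST4 at 0.34). With 200 bp upstream, 1 was called higher (HST1 at 0.54), whose nucleosome at −177 bp in nhp6ab falls inside that window and its WT counterpart at −213 bp outside. With overlapping nucleosomes left out, SIR2 turned to −0.18 and HST2 to −0.12, and HST3 stood at 0.01 and RIF2 at −1.13. The other alternatives kept 0 higher and 1 lower. Of the nucleosome pairs, 7 higher and 4 lower became 2 higher with pairing within 25 bp, 4 higher and 7 lower after scaling to the median count, 0 higher and 1 lower at a fold of 2, and 1 higher and 1 lower per bp. Median ratios of the genes stayed between −0.10 and 0.13. No paired analysis was possible because each table pools both replicates in 1 column, and leaving out a replicate, a replicate block and DESeq2 were not run for the same reason.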

Other observations

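RIF1 had a long stretch inside its ORF without a listed nucleosome in either table, from 2159 to 2883 bp in nhp6ab and from 2162 to 2858 bp in WT, 724 and 696 bp from midpoint to midpoint. The nucleosomes at its borders had ordinary levels, 1.23 and 0.87 in nhp6ab and 1.09 and 1.06 in WT. In the 1000 bp beyond the SIR3 ORF end the level was 0.76 ± 0.32 in nhp6ab and 0.62 ± 0.20 in WT (SD over 5 nucleosomes each), below the ORF level of SIR3 in both tables. Beyond the RIF2 ORF end it was 1.14 ± 0.32 in nhp6ab and 0.73 ± 0.20 in WT (3 nucleosomes each), on a chromosome that was higher as a whole in nhp6ab.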
